A study of Caenorhabditis elegans with 58 samples.

Results

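Small RNAs of the nematode Caenorhabditis elegans were counted in 15 libraries of embryos and 15 libraries of first-stage larvae (L1) from 5 strains in which the microRNA (miRNA) gene mir-35 had been edited. These 30 of the 58 libraries of the series were chosen by their titles and paired by strain and replicate number, with 3 pairs in each strain. The measured features were 274 of the 296 lines of the count table, namely every arm of a miRNA hairpin other than the arms of mir-35, the edited mir-35 sequences and the spike-ins. Of the 274 arms, 224 passed a filter on low counts and were tested, and 50 did not. The question was which changes of the other miRNAs between embryo and L1 recur in each of the 5 strains.

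A miRNA hairpin is cut into a short duplex, of which the guide is loaded into an Argonaute protein and the partner, the passenger, is usually lost. The guide pairs with target mRNAs mostly through its seed, and miRNAs with the same seed form a family that can share targets. In C. elegans the mir-35 family is abundant in embryos and required for their development, the lin-4 and let-7 families time the larval stages, and mir-71 helps larvae that hatch without food to survive. Arms are named as in the table, and an asterisk there marks the passenger, although by the mean log2 ratio the asterisk arm outnumbered its partner in 12 of 89 hairpins in embryos and in 8 in L1.

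The strains were MCJ11, called seed_rev (mir-35(cdb2 cdb4)), MCJ13, called seed_mut (mir-35(cdb2 cdb6)), MCJ180, called mut_3' (mir-35(cdb2 cdb72)), MCJ191, called mir-82_3' (mir-35(cdb2 cdb 78)), and MCJ211, called seed_rev_no_bulge (mir-35(cdb2 cdb 95)). All 5 therefore carry cdb2 together with another edit, and N2, with 6 libraries of each stage, is wild type for mir-35. Hermaphrodite cultures were grown in liquid and bleached. The embryos were frozen, or rocked without food overnight until L1, so that stage, hatching and starvation changed together and cannot be told apart. No time in hours is given for either stage, and the labels do not say that replicates came from separate cultures, so p-values measure the spread between these libraries, which may be technical.

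The 30 libraries held 3195303 to 20396494 counts of the arms studied, and their TMM factors, which correct for composition, ran from 0.714 to 1.304. Levels are given below as CPM, the count of an arm per 1e+06 counts of those arms after this correction. The own edited sequence checked the labels, since the lowest library of the strain itself exceeded the highest library of any other strain by a factor of at least 2.76 in each stage, with seed_rev and seed_rev_no_bulge, whose sequences share reads, set apart. Markers of muscle (mir-1), intestine (mir-60), glia (mir-228) and neurons (mir-124) were counted in every library. The L1 library of mir-82_3' replicate 1 stood apart. Its TMM factor of 0.714 lay below the 0.794 to 1.25 of the 14 other L1 libraries, its 0.467 spike-in counts per miRNA count lay above their 0.0867 to 0.309, and its mir-60 level of 137 CPM lay below their 194 to 2171 CPM. Counts that lead the text are therefore also given without it.

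A core of 63 arms changed in each of the 5 strains in the same direction. By edgeR's quasi-likelihood test at an adjusted p under 0.05, 33 arms were higher in L1 in every strain (14.7% of the 224 tested) and 30 were lower in every strain (13.4%). Those that were higher moved by a median of 2.19 on the log2 scale, from 1.16 to 5.94 over the 32 that were counted in embryos, and those that were lower by a median of 2.73, from 1.18 to 5.98. All 33 higher arms were higher in all 15 pairs, and 29 of the 30 lower arms were lower in all 15. Over all arms, 38 were higher in every pair (17.0%) and 40 were lower in every pair (17.9%), and in 27 and 22 arms (12.1% and 9.82%) the 15 L1 libraries did not overlap with the 15 embryo libraries. Without the mir-82_3' pair of replicate 1, 36 arms were higher and 39 lower in every strain. Without that pair and the mut_3' pair of replicate 2, all 33 higher and 27 of the 30 lower arms were again called in every strain. With spike-in counts as the scale, 21 were higher and 8 lower, of which 20 and 8 were among the 33 and 30.

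Single strains gave longer lists than the core. There were 50 higher and 62 lower arms in seed_rev (22.3% and 27.7%), 47 and 55 in seed_mut (21.0% and 24.6%), 49 and 54 in mut_3' (21.9% and 24.1%), 44 and 45 in mir-82_3' (19.6% and 20.1%), and 47 and 54 in seed_rev_no_bulge (21.0% and 24.1%). Arms called higher in exactly 4 strains numbered 7 and those called lower in exactly 4 numbered 17, whereas 14 and 18 were called in a single strain. The mean of the 5 strains' changes, called the pooled change below, was higher for 77 arms (34.4%) and lower for 89 (39.7%), and its median over all 224 arms was -0.10. Spike-in scaling moved this median to 0.75 and turned the split into 111 higher and 41 lower. The ratio of spike-in to miRNA counts itself had a median of 0.329 in embryos and 0.182 in L1, with overlapping ranges.

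**Figure D1:**
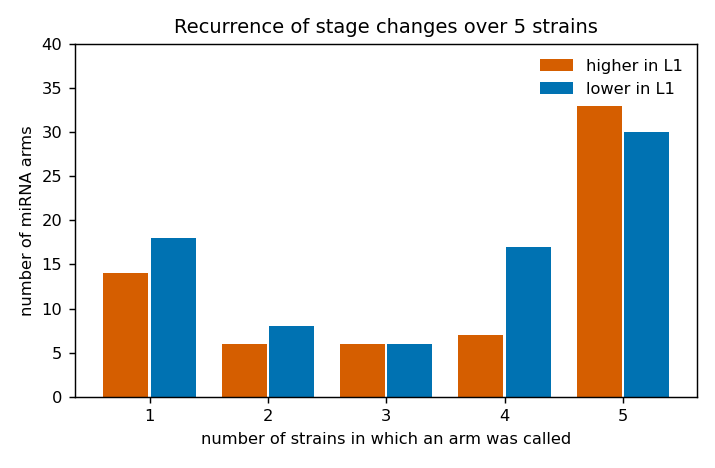
Number of miRNA arms (vertical axis) called higher (orange) or lower (blue) in L1 in 1, 2, 3, 4 or 5 of the edited strains (horizontal axis), by edgeR at an adjusted p under 0.05. The bars at 5 strains, with 33 and 30 arms, are the tallest of each colour.

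The 5 largest decreases all belonged to the mir-35 family. Its 7 guides other than mir-35 itself, mir-36 to mir-42, were all lower in L1 in every strain, with a median pooled log2 change of -5.38 beside -0.10 over all arms. Together they made up 26.1% ± 5.88 (SD, n = 15) of the counts in embryos and 0.866% ± 0.348 (n = 15) in L1. Embryo libraries held 15.0 to 35.6% and L1 libraries 0.5001 to 1.89%, so that the stages did not overlap. The fall of 25.2 points was seen in 15 of 15 pairs (2-sided exact permutation test by sign flips, p = 6.1e-05, the smallest that 32768 flips can give, and 1.0e-04 adjusted over 5 shares). This test and those of the other shares take the 15 pairs as independent. Pairs of different strains with the same replicate number deviated together, as given below, so these p-values may be too small. In whole animals, fewer cells that hold a miRNA and less of it per cell cannot be told apart.

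Within the family the guides differed in level and in the size of the change. The most abundant, mir-37_3p, ran from 78576 to 170334 CPM with a median of 125856 in embryos and from 1270.4 to 9446 CPM with a median of 1988 in L1. Its decrease was 47.4-fold (log2 -5.57, SE 0.22, edgeR adjusted p = 5.8e-14), with strain values from -6.08 to -5.19. For mir-36_3p the embryo libraries ran from 11867 to 32137 CPM with a median of 21201, and the L1 libraries from 192 to 564 CPM with a median of 347. This was the largest pooled decrease of the guides (log2 -5.98, SE 0.21, edgeR adjusted p = 1.7e-14), and no L1 library of either guide reached the lowest embryo library.

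The guide mir-39_3p fell from a median of 88325 to 3082 CPM (log2 -4.78, SE 0.17), mir-40_3p from 21081 to 1157 CPM (log2 -4.18, SE 0.20) and mir-38_3p from 2919 to 44.2 CPM (log2 -5.86, SE 0.34), each with an edgeR adjusted p of 2.5e-11 or less. Far lower in level, mir-41_3p fell from a median of 294 to 6.55 CPM (log2 -5.38, SE 0.22). These 4 guides did not overlap between the stages either. The exception in size was mir-42_3p, which lies apart from the other 6 beside mir-43 and mir-44. It ran from 1445 to 5161 CPM with a median of 3191 in embryos and from 374 to 752 CPM with a median of 564 in L1, a decrease of 5.24-fold (log2 -2.39, SE 0.15, edgeR adjusted p = 6.0e-11) whose 95% interval of -2.71 to -2.07 lay above those of the other 6 guides. The guides mir-36 to mir-41 lie next to each other on chromosome II.

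The passengers of the same hairpins changed less uniformly. Of the 7, 6 fell in the pooled test, as did 51.7% of all passengers tested. The median over all 7 was -2.57, and mir-42_5p* rose (log2 0.58, SE 0.22, edgeR adjusted p = 0.0224). That call was lost without the replicate block, and on leaving out replicate 2 of mir-82_3', replicate 3 of mut_3', replicate 3 of seed_mut, or replicate 2 or 3 of seed_rev_no_bulge. Only mir-37_5p* passed in every strain (log2 -3.06, SE 0.26), although mir-38_5p*, mir-39_5p* and mir-41_5p* were called lower in 4. The L1 library of mir-82_3' replicate 1 held 647 CPM of mir-39_5p*, 1309 CPM of mir-41_5p* and 116 CPM of mir-36_5p*, above the highest of the 14 other L1 libraries at 451, 956 and 76.1 CPM. Of the guides, mir-40_3p at 2777 CPM and mir-41_3p at 11.0 CPM were also above the other L1 libraries, whose highest values were 2672 and 9.86 CPM, and mir-42_3p at 374 CPM was below all of them, while its summed share of family guides of 0.809% lay within the 0.5001 to 1.89% of the others. Of 40 arms that moved one way in 14 of the 15 pairs, 17 had this pair as the exception, among them the passengers of mir-36, mir-37, mir-38, mir-39, mir-41, mir-44, mir-54 and mir-74.

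**Figure D2:**
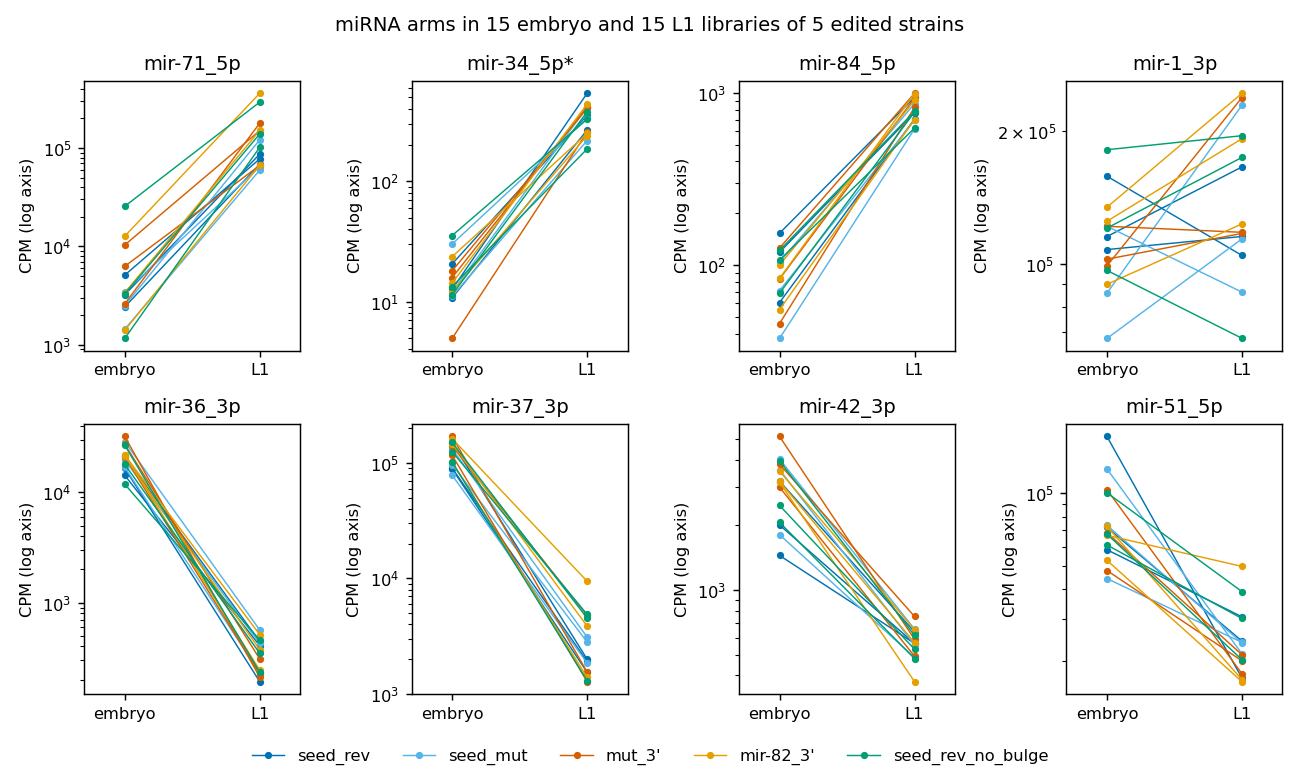
Levels of 8 arms in CPM (vertical axes, log scale) in each embryo and L1 library, with a line for each of the 15 pairs and a colour for each strain. The lines of mir-71_5p, mir-34_5p* and mir-84_5p all climb, those of mir-36_3p, mir-37_3p, mir-42_3p and mir-51_5p all descend, and those of mir-1_3p, a muscle miRNA, run both ways with 11 of 15 higher in L1.

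Among the miRNAs that were higher in L1, mir-71_5p changed the make-up of the libraries most. In embryos it ran from 1160.1 to 25553 CPM with a median of 3285, and in L1 from 59610.4 to 359805 CPM with a median of 101595. No embryo library reached an L1 library, and the increase was 29.5-fold (log2 4.88, SE 0.26, edgeR adjusted p = 7.8e-12), with strain values from 4.42 to 5.29. Its share of the counts went from 0.531% ± 0.535 (SD, n = 15) to 12.4% ± 5.73 (n = 15), higher in 15 of 15 pairs (2-sided exact permutation test with pairs taken as independent, p = 6.1e-05, or 1.0e-04 adjusted over 5 shares). It thereby stood behind mir-1_3p, at 15.1% ± 4.60 (n = 15), as the second most counted arm of L1. Its highest L1 level was that of mir-82_3' replicate 1. The other arm of the hairpin, mir-71_3p*, went from a median of 116 to 528 CPM (log2 2.13, SE 0.17, edgeR adjusted p = 2.8e-09), also without overlap.

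The other miRNAs listed for stress resistance or the survival of starved larvae moved the same way. All 5 guides of that list rose in the pooled test, 4 of them in every strain, with a median of 1.78. Of all 135 guides tested, 53 rose (39.3%), 20 of them in every strain (14.8%), and the median was 0.09. The exception in the list was mir-34_3p, called in 4 strains, whose asterisk partner carries most reads of that hairpin. That partner, mir-34_5p*, is an arm of a miRNA known for its part in stress and DNA damage responses. In embryos mir-34_5p* ran from 4.94 to 35.4 CPM with a median of 13.3, in L1 from 186 to 539 CPM with a median of 333. The stages did not overlap (log2 4.44, SE 0.23, edgeR adjusted p = 2.1e-12), and the strain values were 4.02 to 4.95.

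Next in this list, mir-83_3p, a relative of vertebrate miR-29, went from a median of 45.0 to 202 CPM (log2 2.17, SE 0.21, edgeR adjusted p = 2.9e-08). All 15 pairs were higher in L1, but its lowest L1 library at 48.3 CPM lay within the embryo range, which began at 30.1 CPM. The guide mir-80_3p, a relative of bantam of flies, rose 2.23-fold (log2 1.16, SE 0.16) and the glial marker mir-228_5p 2.36-fold (log2 1.24, SE 0.13), each in 15 of 15 pairs with overlapping stages. This list was drawn up with earlier results of these libraries known, so its direction is no independent evidence.

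Of the miRNAs that time larval development, both members of the lin-4 family rose in every strain, as did 14.8% of all guides tested. The family's founder lin-4_5p, which ends the first larval programme by repressing lin-14, ran from 0 to 1.58 CPM with a median of 0.450 in embryos, where 1 library was at 0, and from 3.66 to 9.84 CPM with a median of 4.90 in L1. Its levels were low in both stages but did not overlap (log2 3.36, SE 0.33, edgeR adjusted p = 2.6e-08). Its relative mir-237 ran from 1.95 to 9.39 CPM with a median of 4.79 in embryos and from 32.7 to 118 CPM with a median of 53.1 in L1 (log2 3.73, SE 0.19, edgeR adjusted p = 2.1e-12), with strain values from 3.15 to 4.39.

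The let-7 family split, beside 39.3% of all guides tested that rose and 31.9% that fell in the pooled test. Of its 6 members in the table, 3 rose, 2 fell and let-7_5p itself did not pass (log2 -0.25, SE 0.33, edgeR adjusted p = 0.511, with a sign that flips between scalings). The member mir-84_5p ran from 37.5 to 153 CPM with a median of 83.9 in embryos and from 617 to 994 CPM with a median of 781 in L1, a rise of 9.61-fold in every strain (log2 3.26, SE 0.18, edgeR adjusted p = 5.4e-12). A rarer member, mir-794_5p, ran from 0.274 to 2.93 CPM with a median of 1.96 and from 4.02 to 62.0 CPM with a median of 32.1, also without overlap (log2 4.13, SE 0.35). In the opposite direction mir-48_5p, which acts with mir-84 and mir-241 in the passage from the second to the third larval stage, fell from 61.8 to 135 CPM in embryos to 21.9 to 46.1 CPM in L1 (log2 -1.45, SE 0.15, edgeR adjusted p = 4.6e-08). It did so in every strain and without overlap, but with spike-in counts as the scale the change of -0.58 no longer passed. The remaining members were mir-795_5p at 1.16, called in 2 strains, and mir-241_5p at -1.28, called in none alone and at 0 in 4 libraries. Its pooled call was lost by DESeq2, with spike-in counts as the scale (-0.44), with only mut_3', mir-82_3' and seed_rev_no_bulge, without mir-82_3' or seed_rev, and on leaving out replicate 1 of mut_3', seed_rev or seed_rev_no_bulge, or replicate 2 of seed_mut.

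Of the remaining arms that rose in every strain, mir-230_3p changed most where the average log2 CPM was 5 or more. It ran from 3.80 to 56.1 CPM with a median of 9.64 in embryos and from 150.0 to 719.9 CPM with a median of 215 in L1, without overlap (log2 4.47, SE 0.31, edgeR adjusted p = 5.0e-10). The strain values ran from 3.62 to 5.30. Its other arm, mir-230_5p, rose too (log2 4.67, SE 0.35).

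The guide mir-238_3p, whose hairpin neighbours that of mir-80, ran from 905 to 3016 CPM with a median of 1699 in embryos and from 9483 to 17299 CPM with a median of 10849 in L1. The rise was 7.78-fold (log2 2.96, SE 0.21, edgeR adjusted p = 4.4e-10) and the stages did not overlap. Its relatives mir-239a_5p (1.85) and mir-239b_5p (0.86) were called in the pooled test, mir-239a_5p in 3 strains and mir-239b_5p in none alone, and the call of mir-239b_5p was lost without the replicate block and on leaving out any of 11 of the 15 pairs. The asterisk arm mir-239a_3p* rose in every strain (log2 1.97, SE 0.22). It was the more abundant arm of its hairpin, with a log2 ratio of -2.51 in embryos and -2.68 in L1. The mir-64 family member mir-63_3p went from a median of 379.7 to 2075 CPM (log2 2.19, SE 0.18), mir-248_3p from 207 to 1129 CPM (log2 2.18, SE 0.16) and mir-1821_3p from 71.4 to 346 CPM (log2 2.30, SE 0.22), each with an edgeR adjusted p of 2.1e-08 or less and no overlap. The guide mir-243_3p, which in C. elegans can work with the Argonaute RDE-1 to trigger small interfering RNAs, went from 63.1 to 190.3 CPM at the median (log2 2.08, SE 0.18). Its stages overlapped, and the strain values ran from 1.15 to 2.59.

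The arms of a rare hairpin were counted mostly in L1. The guide mir-2210_3p ran from 0.161 to 4.00 CPM with a median of 0.671 in embryos and from 17.5 to 80.0 CPM with a median of 43.2 in L1, without overlap (log2 5.94, SE 0.29, edgeR adjusted p = 1.8e-12). Its partner mir-2210_5p* had 0 counts in all 15 embryo libraries and 2 to 35 in each L1 library, 241 in all. Against a floor of 3 counts over the embryo group this was at least 66.2-fold higher.

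Among the arms that fell in every strain outside the mir-35 family, mir-4813_5p changed most. It ran from 149 to 1272 CPM with a median of 375 in embryos and from 5.89 to 95.5 CPM with a median of 13.3 in L1, a decrease of 21.5-fold (log2 -4.43, SE 0.39, edgeR adjusted p = 9.1e-09). The stages did not overlap, and the strains were far apart, from -5.63 to -3.25. The next 5 in the order of size with an average log2 CPM of 5 or more were all passengers.

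The passenger of mir-52, a member of the mir-51 family that is required in embryos, ran from 18.5 to 229 CPM with a median of 110.1 in embryos and from 3.48 to 17.3 CPM with a median of 7.24 in L1 (log2 -3.58, SE 0.29, edgeR adjusted p = 4.0e-09). The guide of that hairpin, mir-52_5p, had medians of 30148 and 30241 CPM (log2 0.07, SE 0.18, edgeR adjusted p = 0.736). The passengers of mir-81 and mir-82, both bantam relatives, fell from medians of 70.3 and 139.8 CPM to 7.24 and 11.5 CPM (log2 -3.13, SE 0.25, and -2.90, SE 0.25). That of mir-67 fell from 118 to 14.01 CPM at the median (log2 -2.76, SE 0.20), and that of mir-73 from 362 to 47.4 CPM (log2 -2.75, SE 0.23). Although marked as the passenger, mir-67_5p* was the more abundant arm of its hairpin in embryos, with a log2 ratio of guide to passenger of -1.66. Of these 5 passengers, mir-82_5p* alone had overlapping stages. All 5 had an edgeR adjusted p of 6.7e-09 or less.

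Besides the family guides and mir-4813_5p, 6 of the 14 guides that fell in every strain remained. The rare mir-1829b_5p went from a median of 5.502 to 0.893 CPM (log2 -2.75, SE 0.29). The guide mir-51_5p, the most abundant of its family in embryos, went from a median of 68569 to 21478 CPM (log2 -1.64, SE 0.20, edgeR adjusted p = 5.0e-07). All 15 pairs were lower and the stages overlapped. The neighbours mir-64_5p (log2 -1.18, SE 0.16) and mir-65_5p (log2 -1.54, SE 0.15) and the rare mir-247_3p (log2 -1.53, SE 0.21) also fell in every strain, as did mir-48_5p of the let-7 family, but with spike-in counts as the scale mir-64_5p at -0.30 and mir-247_3p at -0.70 no longer passed.

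**Figure D3:**
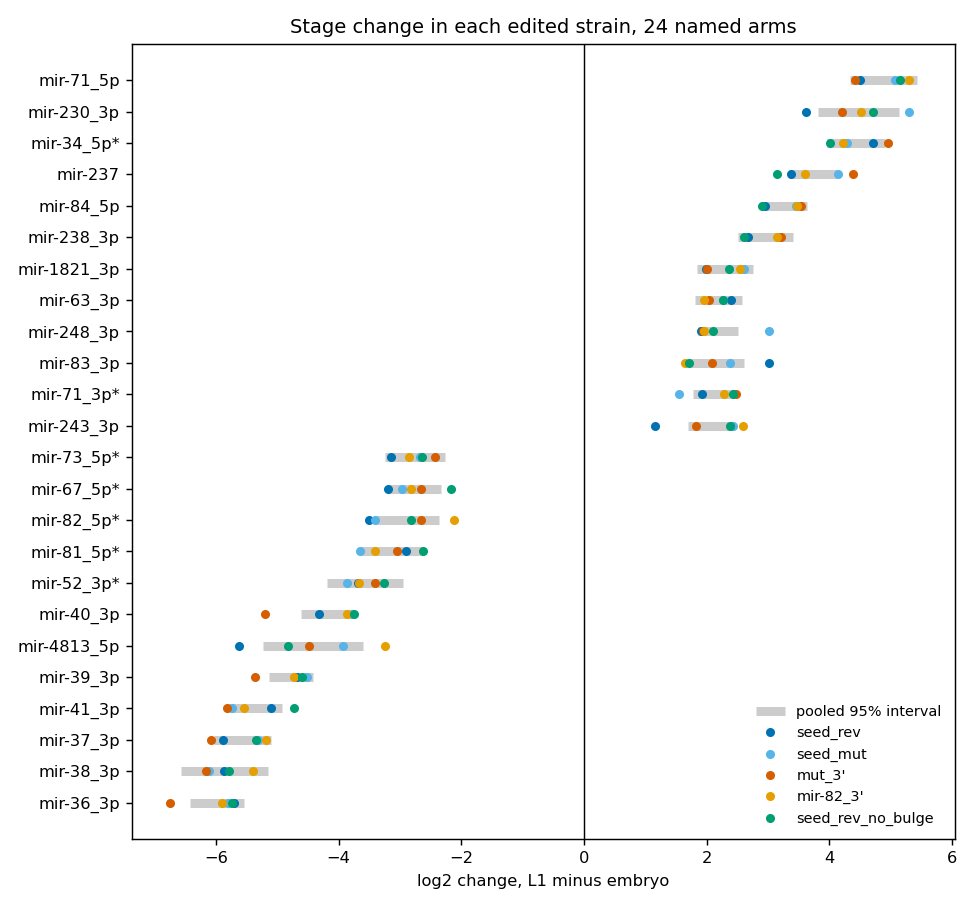
Log2 change from embryo to L1 (horizontal axis) of 24 arms called in every strain, with all pairs in the same direction (vertical axis). They have the largest changes, equally many in each direction, among such arms with an average log2 CPM of 5 or more. Dots are the 5 strains, with 3 pairs each, and grey bars the 95% intervals of the pooled change. Every dot of an arm lies on the same side of 0, and the farthest dots of mir-4813_5p are -5.63 and -3.25.

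The sizes of the changes were then compared among the strains. The F test of edgeR on the differences among the 5 strains called 0 of 224 arms (0%), with 3 at an unadjusted p under 0.05 and a smallest adjusted p of 0.970. DESeq2 also called 0, and limma-voom called 0 with 6 at an unadjusted p under 0.05. A test that misses its threshold does not show that the strains changed alike, and for the recurring arms the gap between the strain with the largest and the strain with the smallest value had a median of 0.92 for the higher and 0.88 for the lower arms on the log2 scale, up to 2.56 and 2.38. In the test of all 5 strains the smallest unadjusted p belonged to mir-72_3p* (0.0289), with strain values from -0.26 to 1.48.

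These tests took pairs of different strains as independent, but pairs with the same replicate number deviated together. Over arms, the correlation of their deviations from the strain's mean change ran from 0.39 to 0.74 (n = 9) among seed_rev, seed_mut and replicates 1 to 3 of wild type, beside -0.52 to 0.19 (n = 18) between different numbers. Among mut_3', mir-82_3' and seed_rev_no_bulge it ran from -0.07 to 0.55 (n = 9), beside -0.58 to 0.30 (n = 18). Deviations from a mean of 3 pairs cancel out within an edited strain. Where same-numbered pairs correlate, values between different numbers are thereby pushed down, so they are no independent reference. Fits that give each shared number its own L1 term were therefore added after these values were seen.

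With such terms seed_mut and seed_rev differed. In edgeR's fit of the 18 libraries of seed_rev, seed_mut and wild type 1 to 3, the change was higher in seed_mut in 23 of 226 arms (10.2%) and lower in 9 (3.98%), with a median size of 1.07 on the log2 scale. The same libraries without the terms gave 0, with 19 at an unadjusted p under 0.05, and the fit of 30 libraries gave 0 with 7. All 32 arms differed in the same direction in each of the 3 numbers, as did 140 of 224 arms over all. Since the 32 were called from these same differences, their agreement in direction is no separate support. Without replicate 1 the count was 0, and it was 24 and 13 without replicates 2 and 3, and the fit had 4 residual degrees of freedom.

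For mir-4813_5p, which fell in both strains, the change was -5.63 in seed_rev and -3.94 in seed_mut, a difference of 1.71 (SE 0.34, edgeR adjusted p = 0.00725). The difference was 1.65, 1.496 and 1.97 in the 3 numbers. For mir-243_3p, which rose in both, the change was 1.15 in seed_rev and 2.43 in seed_mut, a difference of 1.29 (SE 0.30, edgeR adjusted p = 0.0126). Of the 32 arms 4 recur in every strain with the same sign. Among mut_3', mir-82_3' and seed_rev_no_bulge the fit with such terms called 0 of 216 arms (0%), with 5 at an unadjusted p under 0.05, and over all 5 strains, compared within numbers, 0 of 224 with 14.

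Some arms passed in 4 strains only. Of the 5 with the largest pooled change and an average log2 CPM of 5 or more, mir-39_5p*, mir-41_5p*, mir-74_5p* and mir-54_5p* were lower and mir-45_5p* was higher. For mir-39_5p* the strain values ran from -3.93 to -1.94 and for mir-74_5p* from -3.55 to -1.45, both with mir-82_3' nearest 0. Without the mir-82_3' pair of replicate 1, 39 arms rather than 30 were lower in every strain.

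Some abundant arms of other families stayed close to 0, whereas others, such as mir-71_5p (4.88) and mir-51_5p (-1.64), did not. Among arms of higher abundance, those nearest 0 were mir-56_3p (0.03, 95% interval -0.28 to 0.35), mir-58a_3p (-0.03, -0.35 to 0.28) and mir-61_3p (0.04, -0.27 to 0.35). Next came mir-81_3p (-0.06, -0.71 to 0.60) and mir-90_5p* (0.07, -0.37 to 0.51). Less abundant arms were left out of this ranking, also where their average log2 CPM was 5 or more. Relative to the spike-ins, mir-56_3p was at 0.91, so that a value near 0 holds only relative to the other miRNAs.

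Over all guides tested, 39.3% rose and 31.9% fell in the pooled test. In the mir-51 family, 1 of 6 guides rose (mir-54_3p, 0.50), 1 fell (mir-51_5p) and 4 did not pass, with a median of 0.17. Of the 5 bantam relatives tested, the mir-58 family, mir-80_3p rose, mir-82_3p (-0.67, but 0.20 by spike-ins) and mir-2209a_3p (-0.93, but -0.07 and not called by spike-ins) fell and 2 did not pass. The mir-44 family had 2 rises, 1 fall and 1 member that did not pass. Its rises, mir-44_3p (0.42) and mir-45_3p (0.42), are uncertain, since the counts of the pair had a ratio of 0.954 to 1.07 in every library, and neither was called without the replicate block. In the mir-64 family mir-63_3p rose, mir-64_5p and mir-65_5p fell and 2 did not pass. In the mir-2 family mir-43_3p (-1.19, but -0.34 and not called by spike-ins) and mir-797_3p (-2.05) fell and 2 did not pass. Of 2 mirtrons tested, which are made by splicing, mir-62_3p passed in the pooled test at -0.43, but not by DESeq2, without the replicate block or on leaving out any of 9 of the 15 pairs, and stood at 0.47 by spike-ins, and mir-255_3p (-0.35) did not pass.

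The tissue markers did not move as a body. The muscle marker mir-1_3p ran from 67828 to 181332 CPM with a median of 115342 in embryos and from 67885 to 243317 CPM with a median of 123184 in L1 and did not pass (log2 0.35, SE 0.16, edgeR adjusted p = 0.0586), although it did on leaving out any of 6 of the 15 pairs. Higher in the pooled test were the glial mir-228_5p, the intestinal mir-60_3p (log2 1.10, SE 0.25) and mir-791_3p of carbon dioxide sensing neurons (log2 1.32, SE 0.24). The neuronal lsy-6_3p was lower (log2 -0.61, SE 0.22), though not called with RLE factors or plain library totals as the scale, without replicate 2 of seed_mut or replicate 1 of seed_rev, or by spike-ins, where it stood at 0.28. Values of mir-124_3p of sensory neurons did not pass (log2 0.48, SE 0.21) except without replicate 1 of mir-82_3' (0.61) or of seed_rev. Of these marker arms only mir-228_5p passed in every strain. Of their partners that were tested, only mir-791_5p* did so (log2 1.45, SE 0.18). Both arms of mir-791 were about even in level, with a log2 ratio of 0.27 in embryos and 0.13 in L1. The part of a changed cell make-up in these values was not tested.

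Both arms of a hairpin come from the same precursor, so their ratio within a library does not depend on the scaling. In 89 hairpins with both arms tested, the log2 ratio of guide to passenger was higher in L1 in 41 (46.1%) and lower in 18 (20.2%) by limma at an adjusted p under 0.05. All 7 hairpins mir-36 to mir-42 were among the 18, with a median change of -2.82 and a range from -4.16 to -1.80. In the other 82 hairpins, 41 were higher, 11 lower and 30 did not pass, with a median of 0.71. Among the 41 with a higher ratio, the passenger fell while the guide did not in 26, both fell in 7, the guide rose while the passenger did not fall in 7, and neither arm was called in the remaining 1. Of the 89 passengers 46 were lower and 24 higher in the pooled test, and of the 135 guides 43 were lower and 53 higher. Passengers made up 1.21% ± 0.305 (SD, n = 15) of the embryo counts and 0.816% ± 0.136 (n = 15) of the L1 counts, lower in 13 of 15 pairs (2-sided exact permutation test with pairs taken as independent, p = 0.00146, or 0.00183 adjusted over 5 shares).

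**Figure D4:**
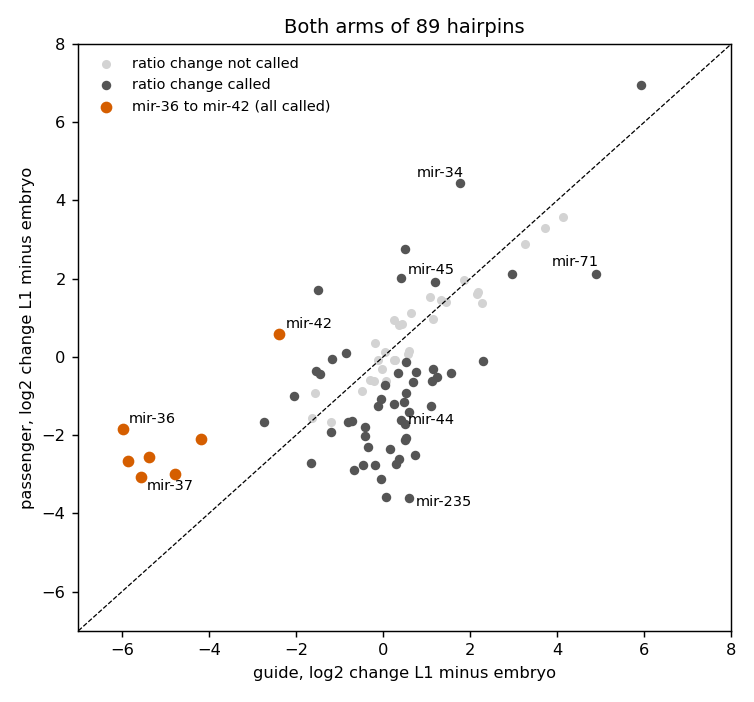
Log2 change of the guide (horizontal axis) and of the passenger (vertical axis) of 89 hairpins, both as L1 minus embryo. Dark and orange points passed the test of the ratio, orange ones are mir-36 to mir-42, which all lie above the diagonal of equal change, and mir-235, mir-44 and mir-71 lie below it. The dark point of mir-2210, above the diagonal, rests on 0 passenger counts in embryos.

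The ratio rose most for mir-235, a relative of vertebrate miR-92 that in C. elegans keeps precursor cells quiescent in starved L1 larvae. Its guide mir-235_3p had medians of 1522 and 2689.8 CPM (log2 0.59, SE 0.18), while mir-235_5p* went from 4.30 to 0.412 CPM at the median (log2 -3.62, SE 0.34). The log2 ratio thus went from 8.58 to 12.81, a change of 4.22 (SE 0.34), higher in 15 of 15 pairs. Next came mir-52 (3.65), mir-86 (3.25), mir-53 (3.19) and mir-252 (3.11). In mir-86 the arms were about even in embryos, with a log2 ratio of -0.01, and at 3.24 in L1, as mir-86_3p* fell from a median of 1551 to 250.2 CPM and mir-86_5p went from 1493 to 2506 CPM.

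The ratio fell most for mir-36 (-4.16), mir-38 (-3.20), mir-789-2 (-3.05), mir-42 (-2.97) and mir-41 (-2.82). In mir-41 the asterisk arm was the higher in both stages, with a log2 ratio of -2.24 in embryos and -5.07 in L1. The same held for mir-34, at -3.27 and -5.93. The hairpins mir-44 and mir-45 have guide counts that cannot be told apart, and their passengers moved in opposite directions, mir-44_5p* by -1.62 (SE 0.24) and mir-45_5p* by 2.01 (SE 0.24), each in 14 of 15 pairs.

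Neighbouring hairpins, those within 2000 bases on the same strand of the WBcel235 annotation, formed 15 groups with 39 hairpins. Some groups moved together. All 6 guides from mir-36 to mir-41 on chromosome II fell, mir-80_3p and mir-238_3p on chromosome III both rose in every strain, and so did mir-792_3p (1.83) and mir-1821_3p (2.30) on chromosome V. Others did not. On chromosome II mir-42_3p was at -2.39, mir-43_3p at -1.19 and mir-44_3p at 0.42, and on chromosome III mir-64_5p and mir-65_5p fell while mir-229_5p (0.26) and mir-66_5p (-0.19), at the ends of their group, did not pass, although mir-229_5p did without replicate 1 of mir-82_3' (0.41). On chromosome IV mir-51_5p fell and mir-53_5p (0.31) did not pass, except without the same pair (0.42).

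The recurring changes were also present where mir-35 was not edited. In wild type, with 6 pairs, 65 of 226 arms were higher (28.8%) and 65 lower (28.8%) by edgeR in 1 fit of all 42 libraries. All 33 higher arms of the 5 strains were among the 65 higher ones of wild type, and all 30 lower arms among its 65 lower ones. The wild-type change was 4.55 for mir-71_5p, -5.82 for mir-36_3p, 3.25 for mir-84_5p and -4.81 for mir-4813_5p, beside pooled changes of 4.88, -5.98, 3.26 and -4.43 in the edited strains.

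No arm was called for a difference between the edited strains and wild type. The test of edgeR called 0 of 226 arms (0%), with 0 at an unadjusted p under 0.05 and a smallest adjusted p of 0.981, and DESeq2 and limma-voom called 0 too. The difference had a median size of 0.20, and 194 of 224 arms lay within 0.5 of equality on the log2 scale. Its 95% interval had a median width of 1.60. This fit leaves the variation that same-numbered libraries share in its error. With 1 L1 term per shared number in seed_rev, seed_mut and wild type 1 to 3, the median width was 1.16 rather than 1.93 without these terms, and the fits called 0 of 226 arms each, with 5 and 2 at an unadjusted p under 0.05. Wild type 4 to 6 share no number with an edited strain and were not matched in this way. Their sample identifiers run on with those of replicates 1 to 3 of mut_3', mir-82_3' and seed_rev_no_bulge. A fit matched by that order was not run. For mir-36_3p the difference was -0.17 (-0.85 to 0.52) and for mir-71_5p 0.33 (-0.61 to 1.27). The fitted difference was under 1 in 221 arms. Of the other 3, mir-235_5p* was at -1.01 (-2.35 to 0.33), and no size is given for mir-2210_5p* and mir-77_5p*, which had 2 counts each over the 6 wild-type embryo libraries.

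**Figure D5:**
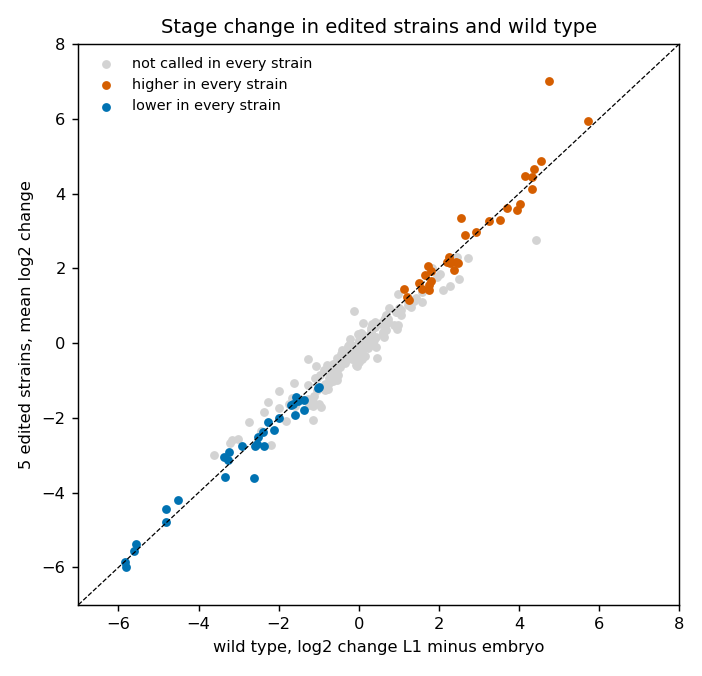
Log2 change from embryo to L1 in wild type (horizontal axis, 6 pairs) and its mean over the 5 edited strains (vertical axis, 15 pairs) for 224 arms, with the line of equal change. The orange and blue arms, called in every edited strain, lie in the upper right and lower left, and the place of mir-2210_5p*, farthest above the line, is a fitted value that rests on 0 counts in edited embryos.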

How the data were processed

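The authors deposited 1 table that holds unscaled estimated counts for each miRNA arm. HTSeq 0.13.5, Bowtie2 2.4.4, cutadapt 3.4, SAMtools 1.13 and DESeq2 are named in the submitters' processing notes, without their roles, and the genome build and counting rules are not given in the sources used here. Of the deposited values of the arms studied, 336 in 111 lines end in 0.5, and all were rounded to whole counts. The authors' design text for the series describes another experiment and was not used.

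The robust quasi-likelihood test of edgeR 4.0.16 (R 4.3.3) was run with TMM factors, filterByExpr (minimum count 10, total 15), 1 block per strain and replicate pair, 1 L1 coefficient per strain and 10 residual degrees of freedom. The pooled change is the mean of the 5 coefficients, and p-values were adjusted over all arms (Benjamini-Hochberg, threshold 0.05). An arm recurs when it passes in each of the 5 strains with the same sign. The biological coefficient of variation was 0.394. Wild type was added in a fit of 42 libraries. Guide to passenger ratios, log2 with 0.5 added to each count, were tested with limma 3.58.1 in the same design, and shares with an exact sign-flip permutation test. The procedure was tested on simulated data. Replicates differed by more than counting error (chi-square per degree of freedom of at least 905), and differences below the intervals given cannot be seen.

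Named arms were up to 12 in each direction with the largest pooled change among those that recur. These had an average log2 CPM of 5 or more and all 15 pairs in 1 direction. Added to them were up to 5 called in 4 strains and up to 5 nearest 0 among arms of higher abundance. Up to 5 hairpins in each direction by ratio and the list members were named too. Arms named outside the rule, chosen after their values were seen, were mir-2210, mir-230_5p, mir-1829b_5p, mir-72_3p*, mir-77_5p*, mir-71_3p* as a partner, mir-792_3p and the second arms of named hairpins. The members and lists were chosen with earlier results of these data known. Hairpin names and neighbours came from the WBcel235 annotation, in which 136 of 137 hairpins were found. Alternatives included other scalings, DESeq2 1.42.0, other filters, no block and each pair or strain left out, and limma-voom and fits with terms for shared replicate numbers (or with same-numbered pairs correlated, from log2 CPM with a prior count of 2) were added after seeing the data. Figures were drawn with Python 3.11.15 and matplotlib 3.10.9.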

Additional observations from a re-analysis of the deposited data

Results flagged for a closer look

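Reads of the unedited mir-35_3p sequence, which the edited strains should lack and which no comparison above uses, were present in all 30 edited libraries. They made up a median of 0.0179% of miRNA counts, from 0.00386 to 0.0598%, or 469 to 11744 counts per library, beside 3.22 to 18.5% in wild-type embryos. The value was flagged because it lies above the limit of 3 counts that a count of 0 would allow, in lines outside the arms studied. Its source was not tested.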

How the results depend on the processing

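Spike-in scaling changed most: 41 arms were lower in the pooled test rather than 89, and 21 were higher and 8 lower in every strain rather than 33 and 30. It turned the sign of mir-82_3p (0.20), lsy-6_3p (0.28) and mir-62_3p (0.47), none of them called under it. Under all 5 other scalings 20 of the 33 higher and 8 of the 30 lower arms recurred, the 8 being the guides of mir-36 to mir-41, mir-4813_5p and mir-235_5p*. With only seed_rev and seed_mut, 51 arms were lower in both, where fewer strains have to pass. With at least 50 counts on average for both arms, 9 of 49 hairpins had a lower ratio. The difference between seed_mut and seed_rev depended most on the fit, with 0 arms called from 30 libraries or without terms for shared numbers, 32 with them in 18 libraries, 0 to 24 in the latter on leaving out 1 number (0, 24 and 13 without replicates 1, 2 and 3), and 90 with them in the 12 libraries of the 2 strains, where 2 residual degrees of freedom remained. Allowing same-numbered pairs to be correlated (limma, consensus correlation 0.33) gave 71 higher and 79 lower arms in the pooled test, 34 and 32 in every strain, and 0 that differed among strains or from wild type. Leaving out 1 pair at a time gave 72 to 81 higher and 80 to 94 lower arms in the pooled test, 25 to 36 higher and 24 to 39 lower in every strain, 0 arms that differed among strains or from wild type, 40 to 45 hairpins with a higher and 17 to 20 with a lower ratio, and a share of the family guides of -26.0 to -24.5 points.

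Without the replicate block, 72 arms were higher and 86 lower in the pooled test, and 31 and 28 in every strain, of which 29 and 27 were shared with the blocked fit. The pairing was not borne out by every pair, since the correlation of same-numbered libraries ran from -0.08 to 0.52 and exceeded 0.1 in 9 of 15, while 14 of 15 embryo libraries correlated best with their own number, a hint from the data and not from the design. DESeq2 gave 83 higher and 82 lower arms and limma-voom 77 and 89. Of 60 named arms called in the pooled test, 44 held under every alternative run and 16 lost the call under at least 1, mir-62_3p under 21, mir-239b_5p under 16 and mir-42_5p* under 11, from causes that were not tested. With 2, 3 or 4 strains the pooled calls of mir-44_3p, mir-45_3p, mir-54_3p, mir-42_5p* and mir-239b_5p were among those lost.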
